A study of Arabidopsis thaliana with 4 samples.

Results

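The genes described here are those at least 2-fold lower in mos2-2 than in wild-type Arabidopsis thaliana seedlings, 278 of the 19236 genes that averaged 1 FPKM (fragments scaled by transcript length and by library depth) or more, out of 33557 listed loci. A gene was a member when its mean log2(FPKM + 5) was lower in mos2-2 by 1 or more and both mos2-2 values lay below both Col-0 values. The values that chose the members are the same FPKM values described below, so every difference between genotypes is a description and carries no test.

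The study made RNA-seq from 14-day-old seedlings of Col-0 (wild type, 2 libraries) and of mos2-2 (the T-DNA line SALK_033856 in the Col-0 background, 2 libraries), all raised in a photoperiod of 16 h light and 8 h dark. Polyadenylated RNA was selected from total seedling RNA and read on an Illumina GAIIx. mos2-2 is a single insertion line with no second allele or complemented line among the libraries. Whether replicate libraries came from different cultures is not in the labels, so their spread may be technical.

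MOS2 is a nuclear RNA-binding protein with a G-patch domain, first known as a gene that the autoimmune mutant snc1 needs for its constitutive defence, and the study connects it with microRNA maturation. Plant immunity runs from receptors at the cell surface and inside the cell, through calcium and MAP kinase signals, to the hormones salicylic acid, jasmonate and ethylene. Salicylic acid chiefly drives output such as PR2 and PR5, whereas jasmonate and ethylene together drive plant defensins and basic chitinases.

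Members made up 1.45% of the genes tested, and the mirrored rule for genes at least 2-fold higher in mos2-2 took 110 genes, or 0.572%. Across the members the Col-0 mean had quartiles of 19.2, 38.3 and 106 FPKM, against 4.56, 11 and 37.1 FPKM in mos2-2. The middle member was lower by a log2 difference of -1.235, while the median over all genes tested was -0.064. Members just inside the threshold were AT1G65845, AT2G12230, MLP28 and AT4G24026, and MLP28 stood at 304 and 352 FPKM in wild-type seedlings and 141 and 184 FPKM in the mutant. Just outside lay AT4G23870, CLE21, SUMO3 and AT1G49245, and AT4G23870 stood at 37.9 and 55.5 FPKM in Col-0 against 16.9 and 24.6 FPKM in mos2-2. The values form a continuum at the threshold.

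**Figure D1:**
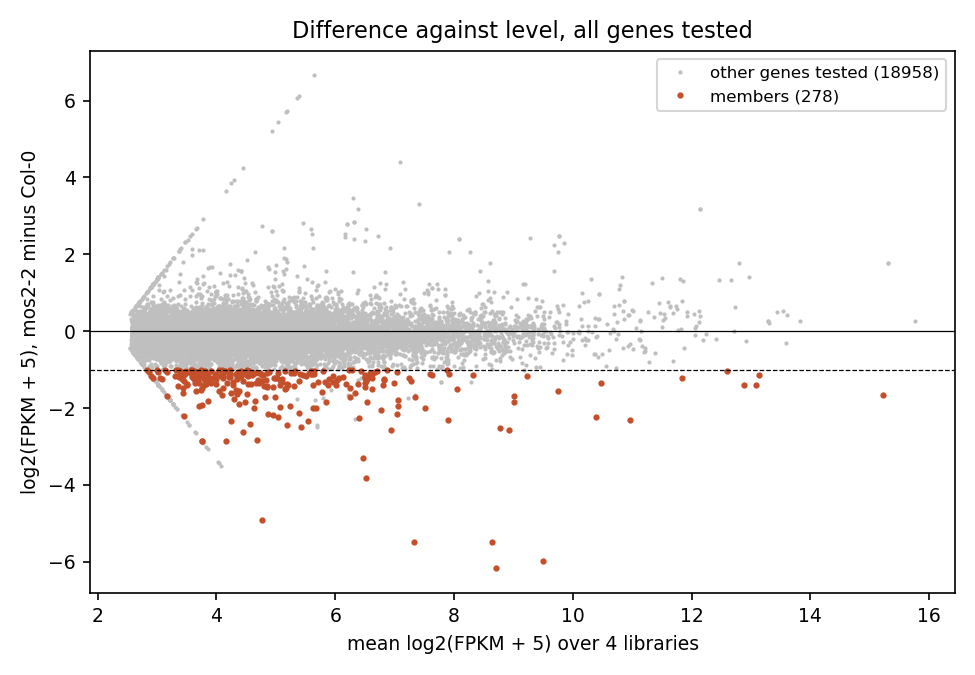
Each point is a gene that averaged at least 1 FPKM; the horizontal axis is its mean log2(FPKM + 5) over 4 libraries and the vertical axis the mos2-2 minus Col-0 difference on that scale. The 278 members (red) lie on or below the dashed line at -1, and 5 of them lie at -4 or lower; grey points below the line are genes whose genotypes overlap.

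The limma test with Benjamini-Hochberg adjustment called 0 genes lower in mos2-2 at an adjusted p below 0.05, 0% of the genes tested. At an unadjusted p below 0.05 it called 1005 genes lower, or 5.22%, and 237 of the 278 members were among them. The smallest adjusted p of a member was 0.147, for MOS2. Both counts use the contrast that chose the members, so nothing is read from them.

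Col-0 replicate 1 was the shallowest library, at about 4070000 reads against 6390000 to 6610000 in the other libraries, as estimated from the smallest steps of the FPKM values. By that estimate 219 of 268 members with an annotated length had at least 50 reads in both Col-0 libraries, and 5 had fewer than 10 in a Col-0 library. Of the marker lists for other tissues, 0 genes were members. Each list had at most 7 tested genes, so 0 is near the 1.45% of all genes tested that were members. Shoot meristem markers summed to 26.8 and 30.9 FPKM in wild-type seedlings and 13.5 and 23.4 FPKM in the mutant, and both that were tested were lower, with a median difference of -0.497 (-0.207 without mos2-2 replicate 1, -0.786 without mos2-2 replicate 2). Root markers summed to 16 and 12.7 FPKM in Col-0 and to 9.96 and 12.3 FPKM in mos2-2, with RHD6, EXPA7 and PLT1 at 0 in every library, and seed markers summed to at most 1.26 FPKM. Flower markers were uneven within genotypes, at 66.3 and 25.7 FPKM in the wild type, against 9.36 and 49 FPKM in mos2-2. The sums for guard cell, trichome, phloem and xylem markers overlapped between genotypes. The part of these cell types in the results was not tested. In seedling libraries, fewer cells of a type and less RNA per cell cannot be told apart.

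MOS2 itself (AT1G33520; TAIR10.1, chromosome 1, bases 12157054 to 12159125, minus strand, 1 exon) stood at 50.3 and 36.9 FPKM in wild-type seedlings and 2.16 and 1.16 FPKM in the mutant. It was 26.3-fold lower by the ratio of means, a log2 difference of -2.86 with a standard error of 0.23. The genotypes were far apart and the libraries of each were close; MOS2 is itself a member, so the rule used these values. Of the 129 other tested genes within 500 kb of MOS2, 0 were members, which is near the 1.45% of all genes tested that were members. Of 25 tested genes of microRNA biogenesis and silencing, MOS2 was the only member, and the list's median difference was 0.026 (0.098 under median-ratio scaling).

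Among receptors, the member RLP23, a receptor-like protein known to sense a peptide from microbial NLP proteins, had 32.1 and 13.5 FPKM in Col-0 but 1.83 and 2.03 FPKM in the mutant. SOBIR1, the receptor kinase that such receptor-like proteins need for signalling, had 175 and 107 FPKM in the wild type, against 72.1 and 42.3 FPKM in mos2-2. As the rule demands of every member, both Col-0 libraries lay above both mos2-2 libraries for each gene. Col-0 replicate 1 was the higher Col-0 library for the receptor and for its partner. RLP23 was lower by a log2 difference of -1.92 (standard error 0.50) and SOBIR1 by -1.23 (standard error 0.49). SOBIR1 and RLP23 each overlap a listed locus on the opposite strand, as do 50 of the 268 mapped members, and the strand setting of the authors' counting is not given in the sources used here. Reads of such overlapping pairs may not be told apart. Of the members described below this touches RLP34, RPP13, AT4G27300, AT3G01830, HCHIB, GSTF2, AT5G03350, UGT71B6, HTA4, AT5G55460 and AT2G07763.

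Receptor-like kinases, which carry an extracellular domain and an intracellular kinase, gave 7 members among 225 tested, or 3.11%. Of the 225, 179 were lower in mos2-2 (160 under median-ratio scaling and 152 under quantile normalization), while 59.6% of all genes tested were lower (49.2% and 48.7%). The family's median difference was -0.185, against -0.114 under quantile normalization and -0.11 without Col-0 replicate 1. CRK4, a cysteine-rich receptor-like kinase, had 75.9 and 39.6 FPKM in wild-type seedlings and 18.5 and 14.2 FPKM in the mutant. EP1, annotated as related to receptor-like kinases, was tighter within genotypes, at 44.1 and 42.8 FPKM in Col-0 but 18.9 and 13.4 FPKM in the mutant. AT4G27300, an S-locus lectin kinase, ran the other way within Col-0, at 17.3 and 39.1 FPKM, with 8.13 and 9.14 FPKM in mos2-2. RLP34 was the second member among 31 receptor-like proteins, at 22.9 and 9.07 FPKM in the wild type, against 3.8 and 3.07 FPKM in mos2-2. Inside the cell, 1 of 102 tested TIR and NB-LRR receptors was a member (0.98%), a share no higher than the 1.45% of all genes tested. That member, RPP13, which confers resistance to downy mildew, had 30.2 and 23 FPKM in wild-type seedlings and 11.9 and 7.14 FPKM in the mutant. NDR1, a membrane protein that several such receptors require, stood at 26.3 and 31.7 FPKM in Col-0 but 11.1 and 9.51 FPKM in the mutant, a difference of -1.15 with a standard error of 0.14.

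Of 53 tested genes of the early elicitor, calcium and touch response, 4 were members (7.55%), and the median of the list was -0.36 with 38 genes lower; without Col-0 replicate 2 it was -0.10. They comprise MKK4 and MPK11, a kinase and a MAP kinase of the elicitor cascade, the calmodulin-like CML37, and SIB1, which binds WRKY33. MPK11 had 16.8 and 12.3 FPKM in the wild type, against 4.24 and 4.23 FPKM in mos2-2. SIB1 had 50.8 and 138 FPKM in wild-type seedlings and 30 and 31.8 FPKM in the mutant, so that Col-0 replicate 2 stood apart. MKK4 and MPK11 were instead higher in Col-0 replicate 1. Calcium-binding EF-hand proteins gave 5 members of 52 (9.62%). AT3G01830 was the steadiest of those named, at 25.3 and 22.7 FPKM in Col-0 but 6.56 and 4.21 FPKM in the mutant, whereas AT2G41410 spread from 52.8 to 165 FPKM within mos2-2. Among transcription factors, AP2/ERF factors gave 0 members of 68 tested, MYB factors 0 of 71, WRKY factors 1 of 46 (2.17%, WRKY51) and NAC factors 2 of 52 (3.85%, NAC090 and NAC036), beside 1.45% of all genes tested. NAC090 had 16.8 and 7.88 FPKM in the wild type, against 0.712 and 1.9 FPKM in mos2-2.

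The salicylic acid list had 7 members among 26 tested genes, or 26.9%, beside 1.45% of all genes. All 26 were lower in mos2-2 on average, 15 without overlap of the genotypes, and 24.7% of all genes tested were lower without overlap. The list's median difference was -0.476, and 24 of the 26 were lower under median-ratio scaling or quantile normalization, beside 49.2% and 48.7% of all genes tested. Without Col-0 replicate 1 the number lower was 25, without Col-0 replicate 2 it was 22, and without either mos2-2 library it was 23. BGL2 (PR2), a secreted beta-1,3-glucanase, had 215 and 149 FPKM in wild-type seedlings and 46.6 and 24 FPKM in the mutant. PR5, a thaumatin-like protein, had 325 and 260 FPKM in Col-0 but 93.7 and 76 FPKM in the mutant. AT5G10760, an aspartyl protease, had 80.7 and 84.7 FPKM in the wild type, against 15 and 14.9 FPKM in mos2-2. Each of these 3 genes showed a gap between genotypes wider than its spread within either, with standard errors of 0.49, 0.21 and 0.03 around log2 differences of -2.25, -1.73 and -2.13. The rule chose members by these same values, so the gaps are a description.

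Regulators of the salicylic acid pathway were also members. ACD6, a membrane ankyrin protein that promotes salicylic acid defence, had 232 and 122 FPKM in wild-type seedlings and 76.9 and 61.2 FPKM in the mutant. NIMIN1, which binds the salicylic acid receptor NPR1, had 21.1 and 16.3 FPKM in Col-0 but 3.02 and 7.66 FPKM in the mutant. NUDT6, a nudix hydrolase, and NIMIN-2, another NPR1 binding protein, completed the list's members. Their Col-0 values were 16.5 and 7.64 FPKM for NUDT6 and 48.5 and 29.4 FPKM for NIMIN-2, against at most 2.42 and 15.7 FPKM in mos2-2. The receptor genes NPR1, NPR3 and NPR4 lay between -0.29 and -0.20, and PAD4, which acts upstream of salicylic acid, lay at -0.92, just short of the threshold. DMR6, an enzyme that hydroxylates salicylic acid, was a member as well, at 80.2 and 55.2 FPKM in the wild type, against 20.8 and 36.7 FPKM in mos2-2.

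PR1, the usual reporter of the pathway, was no member. It had 150 and 155 FPKM in Col-0 but 764 and 25.3 FPKM in mos2-2, so that the mutant libraries lay on either side of the wild type. Its mean FPKM was thus higher in mos2-2, while its mean log2(FPKM + 5) was slightly lower. Within Col-0, 6 of the 7 salicylic acid members were higher in replicate 1, none by 2-fold on the log2(FPKM + 5) scale. Without Col-0 replicate 1 the same rule took 4 genes of the list, and without any other library it took 8.

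The ethylene and defensin list gave 7 members of 27 tested genes, or 25.9%, with a list median of -0.203 and 10 genes higher in mos2-2; without Col-0 replicate 1 the median was -0.442 and without Col-0 replicate 2 it was -0.02. Its members were defence products: the plant defensins PDF1.2, PDF1.2b, PDF1.2c, PDF1.3 and LCR67, which are small secreted antifungal peptides, the chitin-binding PR4 and the basic chitinase HCHIB. The 4 defensins of the PDF1.2 and PDF1.3 genes held the lowest differences of all members, from -6.17 to -5.49. PDF1.2 had 2632 and 12697 FPKM in wild-type seedlings and 28.7 and 240 FPKM in the mutant, a 57.1-fold ratio of means. PDF1.2c had 1344 and 9226 FPKM in Col-0 but 20.7 and 88.7 FPKM in the mutant, and PDF1.3 had 438 and 2647 FPKM against 16.9 and 21.5 FPKM. The genotypes were separate for each, as the rule demands, but Col-0 replicate 2 was several times higher than Col-0 replicate 1. The standard error of the log2 difference was 1.83 for PDF1.2.

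All 7 members of this list were at least 2-fold higher in Col-0 replicate 2 than in Col-0 replicate 1, a step that 3.3% of all genes tested and 22 of the 278 members (7.91%) showed. PR4 had 494 and 1915 FPKM in the wild type, against 283 and 249 FPKM in mos2-2, and HCHIB had 18.5 and 106 FPKM in wild-type seedlings and 12.7 and 8.82 FPKM in the mutant. LCR67 had 4.52 and 53.4 FPKM in Col-0 and was listed at 0 and 0.274 FPKM in mos2-2. Without Col-0 replicate 2 the rule took 4 genes of the list. The difference was then -0.88 for PR4 and -0.59 for HCHIB, while PDF1.2 remained at -4.86. ORA59, a transcription factor that drives PDF1.2, was likewise highest in Col-0 replicate 2, at 11.7 and 54.1 FPKM in Col-0 but 7.88 and 13.9 FPKM in the mutant, and its mos2-2 replicate 2 overlapped Col-0. The part of Col-0 replicate 2 in the rest of this list was not tested.

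PDF1.2 and PDF1.2b hold the GCC-box that ERF transcription factors bind in the 300 bases before their annotated start, and their promoters are shown for that reason. The motif GCCGCC is in capitals, at -222 in PDF1.2 (TAIR10.1, chr5:17907639-17907938, minus strand) and at -143 in PDF1.2b (chr2:11088823-11089122, plus strand), counted from the first base of the gene and read 5′ to 3′ along the gene.
PDF1.2: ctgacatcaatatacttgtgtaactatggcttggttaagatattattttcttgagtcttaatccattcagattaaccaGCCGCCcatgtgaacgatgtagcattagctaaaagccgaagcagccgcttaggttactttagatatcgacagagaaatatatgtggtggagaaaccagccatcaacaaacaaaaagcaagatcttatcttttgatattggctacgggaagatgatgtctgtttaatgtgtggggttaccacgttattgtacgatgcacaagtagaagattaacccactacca
PDF1.2b: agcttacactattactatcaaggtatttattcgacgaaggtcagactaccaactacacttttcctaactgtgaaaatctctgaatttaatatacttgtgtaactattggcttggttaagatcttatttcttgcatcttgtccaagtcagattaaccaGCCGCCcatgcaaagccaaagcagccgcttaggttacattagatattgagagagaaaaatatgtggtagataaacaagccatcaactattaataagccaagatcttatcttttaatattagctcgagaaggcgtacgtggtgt

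Both promoters share a stretch around the motif, and over 510 aligned transcript bases these genes were 90.4% identical, so reads could be split between the copies. GCCGCC, searched on both strands, was in 9 of 268 member promoters (3.36%) and in 2.48% of the 18975 promoters of tested genes. Of the 7 ethylene and defensin members, 2 held it, and of the 27 tested genes of the list, 3 did. The other 5 members of the list had no GCCGCC in this window.

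**Figure D2:**
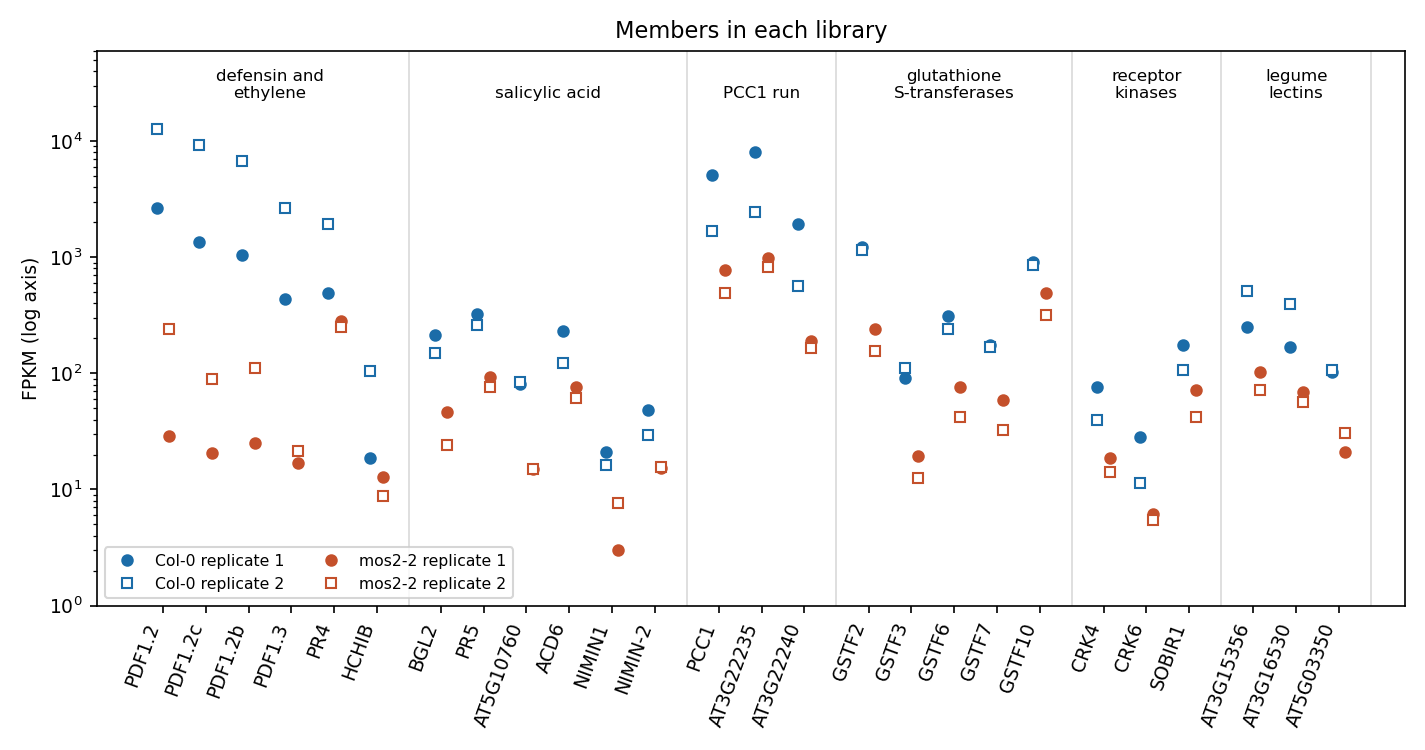
FPKM on a log axis of selected members in each library, grouped by role (Col-0 blue, mos2-2 orange; filled circles replicate 1, open squares replicate 2). PDF1.2 spans 28.7 to 12697 FPKM and is higher in Col-0 replicate 2, whereas PCC1, at 489 to 5096 FPKM, is higher in Col-0 replicate 1.

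Chitinases and glucanases, which attack fungal cell walls, had the highest share of any family or list, 7 members of 19 tested (36.8%, median -0.324). The family's median was -0.223 without Col-0 replicate 1, -0.501 without Col-0 replicate 2 and -0.25 under median-ratio scaling. BG3, a beta-1,3-glucanase, had 105 and 21.7 FPKM in the wild type, against 5.47 and 2.41 FPKM in mos2-2. The 3 neighbouring chitinase genes on chromosome 2, CHI, AT2G43580 and AT2G43590, were all members within 6611 bp. AT2G43590 had 45.8 and 131 FPKM in wild-type seedlings and 34.7 and 22.4 FPKM in the mutant, so its Col-0 replicate 1 stood close to the mutant. Col-0 replicate 1 was at least 2-fold higher for 2 members of the family and Col-0 replicate 2 for 3. Without Col-0 replicate 2 the rule took 3 genes of the family.

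Glutathione S-transferases, which conjugate glutathione to toxic compounds, gave 6 members of 40 tested (15%, median -0.171), and 32 of the 40 were lower (28 under median-ratio scaling, 27 under quantile normalization). The family's median was -0.087 and -0.105 under these scalings. GSTF2 had 1230 and 1146 FPKM in Col-0 but 243 and 156 FPKM in the mutant. GSTF6 had 309 and 241 FPKM in the wild type, against 76 and 42.2 FPKM in mos2-2, and GSTF7 had 175 and 169 FPKM against 59.2 and 32.5 FPKM. These values were close within Col-0, unlike those of the defensins, and leaving out any library gave 6 to 8 genes. The pairs are near copies: GSTF2 and GSTF3 were 94% identical over 1001 aligned transcript bases and GSTF6 and GSTF7 93.6% over 1003, so the split of reads within a pair is uncertain.

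Lectins and curculin-like proteins, which bind sugars, gave 4 members of 38 (10.5%, median -0.25), 3 of them legume lectins. AT5G03350 had 102 and 108 FPKM in wild-type seedlings and 21 and 30.5 FPKM in the mutant. AT3G15356 had 249 and 516 FPKM in Col-0 but 104 and 72.5 FPKM in the mutant, and AT3G16530, 89.3% identical to it, had 167 and 394 FPKM against 68.4 and 57 FPKM. All 3 were separate between genotypes, as the rule demands, with Col-0 replicate 2 the higher Col-0 library in each. The rule took 5 lectin genes without any of the 4 libraries in turn. In the family of extensins, arabinogalactan and proline-rich proteins of the cell wall, 6 of 167 were members (3.59%), among them EXT3, at 98 and 186 FPKM in the wild type, against 47.6 and 35.9 FPKM in mos2-2.

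W-box elements, the sites bound by WRKY transcription factors, were counted as TTGAC on both strands in the same 300-base windows. They were in 153 of 268 member promoters (57.1%) and in 49.8% of all those tested, and at least 2 were in 67 of the 268 and in 3332 of the 18975. All 6 glutathione S-transferase members held one, beside 26 of the 40 tested in that family (65%). All 7 receptor-like kinase members held one and 6 held at least 2, beside 64% and 33.8% of the 225 tested in that family. The shares of both whole families were thus themselves above that of all promoters. The promoters below show it in capitals, as TTGAC or as GTCAA where it lies on the other strand, in TAIR10.1 coordinates: GSTF2 at chr4:1112034-1112333 and CRK4 at chr3:16866262-16866561, both minus strand.
GSTF2: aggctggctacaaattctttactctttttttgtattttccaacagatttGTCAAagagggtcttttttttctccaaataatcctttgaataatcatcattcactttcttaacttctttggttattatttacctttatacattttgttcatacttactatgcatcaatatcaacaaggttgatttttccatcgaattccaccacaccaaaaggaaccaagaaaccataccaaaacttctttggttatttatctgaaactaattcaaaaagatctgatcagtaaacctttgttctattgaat
CRK4: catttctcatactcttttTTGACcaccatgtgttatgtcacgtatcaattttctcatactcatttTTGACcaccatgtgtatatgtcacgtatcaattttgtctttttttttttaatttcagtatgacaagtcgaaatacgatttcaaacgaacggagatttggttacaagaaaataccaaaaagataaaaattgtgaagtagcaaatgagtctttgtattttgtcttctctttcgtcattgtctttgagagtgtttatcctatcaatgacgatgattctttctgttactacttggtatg

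CRK4 held 2 copies, at -282 and -235, and GSTF2 held 1, at -251. In CRK4 both copies sit in a stretch that is repeated with few changes. The CAMTA element (ACGCGT or CCGCGT) was in 7.84% of member promoters and 4.06% of all, with at least 2 in 1.49% and 0.237%. The G-box (CACGTG) was less frequent among members, at 4.85% against 7.87%. The remaining motifs were closer to the share of all promoters: the as-1 core (TGACG, which overlaps TTGAC in the run TTGACG) in 26.1% and 22%, and the DRE core (CCGAC) in 14.2% and 15.1%. The evening element (AAATATCT) was in 5.97% and 5.92%. No test was made of these shares, and a match in a window does not make it a bound site.

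Of 34 tested jasmonate genes 2 were members (5.88%, beside 1.45% of all genes tested): TAT3, an aminotransferase, at 51.9 and 9.18 FPKM in wild-type seedlings and 6.03 and 3.43 FPKM in the mutant, and CORI3, a cystine lyase, at 73.1 and 77.5 FPKM against 28.8 and 21.9 FPKM. TAT3 rested on Col-0 replicate 1, since its difference was -0.56 without that library and -1.56 with all. VSP1 differed by -1.28 on average and failed the demand of no overlap, with 18.9 and 116 FPKM in mos2-2 against 143 and 109 FPKM in Col-0. Of 17 camalexin and indole glucosinolate genes 1 was a member (5.88%), PAD3, the enzyme of the last step of camalexin synthesis, at 21.4 and 8.8 FPKM in Col-0 but 3.85 and 2.29 FPKM in the mutant. Among 31 genes of abscisic acid, cold and drought, 3 were members (9.68%). UGT71B6, which attaches glucose to abscisic acid, had 10.2 and 10.9 FPKM in the wild type, against 1.63 and 2.03 FPKM in mos2-2, while ERD7 and the dehydrin LTI30 differed by -1.29 and -1.15.

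No member came from 11 further lists: the clock, photosynthesis, heat shock, flavonoids, aliphatic glucosinolates, sulfate, phosphate, iron, senescence, auxin and reference genes. Each had 10 to 34 tested genes, so 0 is near the 1.45% of all genes tested that were members. Of the photosynthesis list all 34 genes were higher in mos2-2 on average, and 33 were under quantile normalization. Of all genes tested, 59.6% were lower in mos2-2, and 48.7% under quantile normalization. Without Col-0 replicate 1, 19 were higher and 15 lower, and the list's median fell from 0.544 to 0.104; without Col-0 replicate 2 it was 1. Ribosomal proteins gave 0 members of 323 tested, beside 1.45% of all genes tested. Lists and families relied on annotated names and products. The 10 members without a match in the annotation, organelle loci such as ATCG00220 among them, may therefore be missed in these counts. In all, 25 members stood in a pathway list, 70 in a family, and 192 in neither.

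**Figure D3:**
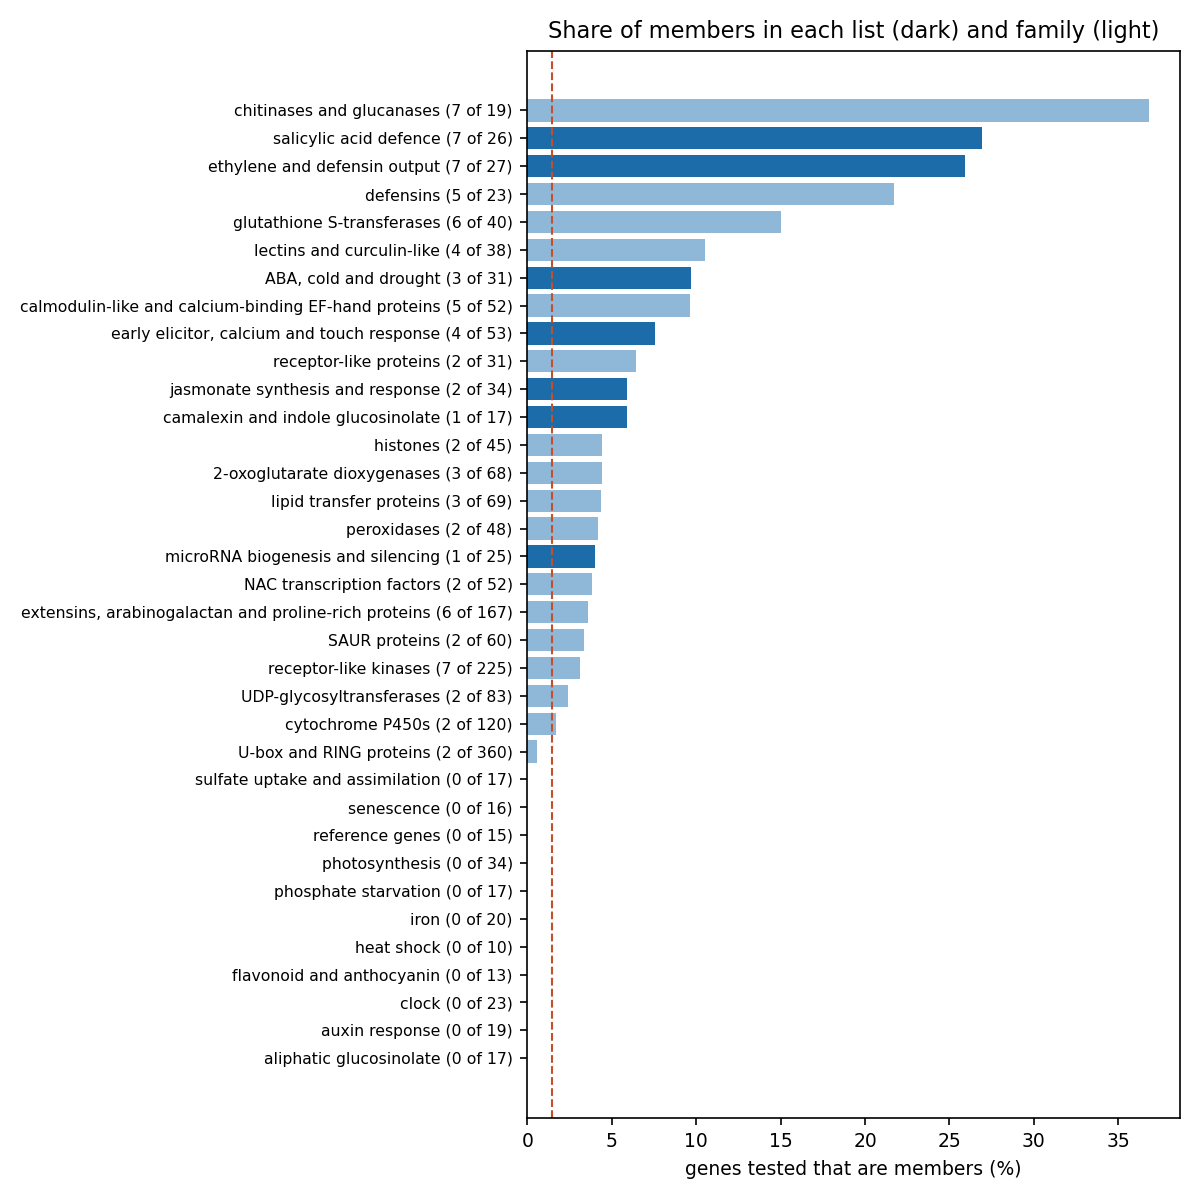
Share of tested genes that are members, for every pathway list (dark bars) and for families with at least 2 members (light bars), with members and genes tested in brackets. The dashed line marks the 1.45% of all genes tested; chitinases and glucanases reach 36.8%, and 11 lists stand at 0.

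Several members outside the lists have known parts in defence, and those named next, LURP1, PNP-A and CRT3, were chosen after their values were seen. LURP1, needed for full resistance to downy mildew, had 1274 and 657 FPKM in wild-type seedlings and 357 and 223 FPKM in the mutant. PNP-A, a secreted natriuretic peptide, had 80.6 and 46.7 FPKM in Col-0 but 16.6 and 8.36 FPKM in the mutant. CRT3, a calreticulin needed to fold the receptor EFR, had 237 and 110 FPKM in the wild type, against 58.9 and 48 FPKM in mos2-2. All 3 were higher in Col-0 replicate 1 than in Col-0 replicate 2. Under the naming rule for steady members, FUT4, a fucosyltransferase, had 33.3 and 34 FPKM in wild-type seedlings and 13.5 and 13.1 FPKM in the mutant, and AIG2, induced by an avirulence gene, had 166 and 174 FPKM against 71.9 and 64.2 FPKM. RING1, a RING-type ubiquitin ligase, had 78.7 and 121 FPKM in Col-0 but 14.8 and 28.6 FPKM in the mutant.

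Of 268 mapped members, 50 (18.7%) had another member among the 5 nearest listed loci on either side, and 1585 of 18976 mapped nuclear genes tested (8.35%) had a member there. The share of tested genes that were members ran from 1.21% on chromosome 5 to 1.74% on chromosome 2. There were 5 runs of 3 members. The run with the highest levels was PCC1, AT3G22235 and AT3G22240 on chromosome 3, over 19073 bp on the minus strand, which encode small cysteine-rich transmembrane proteins. Further runs were HTA4, AT4G13572 and AT4G13575 within 9246 bp, AT5G44565, AT5G44568 and AT5G44578 within 27202 bp, and AT5G55420, AT5G55450 and AT5G55460 within 7570 bp.

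PCC1, named for its control by pathogens and the clock, had 5096 and 1666 FPKM in the wild type, against 772 and 489 FPKM in mos2-2. AT3G22235 had 8047 and 2447 FPKM in wild-type seedlings and 976 and 820 FPKM in the mutant, and AT3G22240 had 1933 and 563 FPKM against 188 and 167 FPKM. The 3 genes kept the same order of libraries, highest in Col-0 replicate 1 and lowest in mos2-2 replicate 2. PCC1 and AT3G22235 were 99.7% identical over 343 aligned bases, so their values are not independent. AT3G22235 and AT3G22240 were 92.4% identical over 490 aligned bases, so reads could be split between them as well. Clock genes also differed between libraries of a genotype: CCA1 had 0.49 and 4.41 FPKM in Col-0 but 0.76 and 24.2 FPKM in the mutant. The part of the clock in the PCC1 run was not tested. Of the lipid transfer genes in the last run, AT5G55450 had 541 and 158 FPKM in the wild type, against 38.7 and 52.2 FPKM in mos2-2.

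Members were less even between the Col-0 replicates than genes at large. The median absolute log2 difference between Col-0 replicates was 0.696 for members and 0.259 for all genes tested, and between mos2-2 replicates 0.33 and 0.207. The rule used these same libraries, so this is a description. Col-0 replicate 1 exceeded replicate 2 by at least 2-fold in 52 members (18.7%, beside 3.28% of genes tested). For 31 members the gap between Col-0 replicates exceeded that between genotype means. Replicate 2 was the lower Col-0 library in 174 members (62.6%, beside 62.8% of genes tested) and the lower mos2-2 library in 168 (60.4%, beside 58.2%). Within mos2-2, replicate 2 was at least 2-fold above replicate 1 in 9 members (3.24%, beside 2.95%) and at least 2-fold below it in 14 (5.04%, beside 1.91%). At least 2-fold in the same direction in both genotypes, 4 members were lower in replicate 2 (beside 0.504% of genes tested) and 3 were higher (beside 0.972%). Of the 52 members with Col-0 replicate 1 at least 2-fold high, 42 (80.8%) were also higher in mos2-2 replicate 1, beside 70.6% of the 630 such genes among all tested. Of the 22 with Col-0 replicate 2 at least 2-fold high, 12 (54.5%) were higher in mos2-2 replicate 2, beside 68.3% of 634. PDF1.2c had the largest difference between Col-0 replicates, 2.78 on the log2(FPKM + 5) scale, with replicate 2 the higher.

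**Figure D4:**
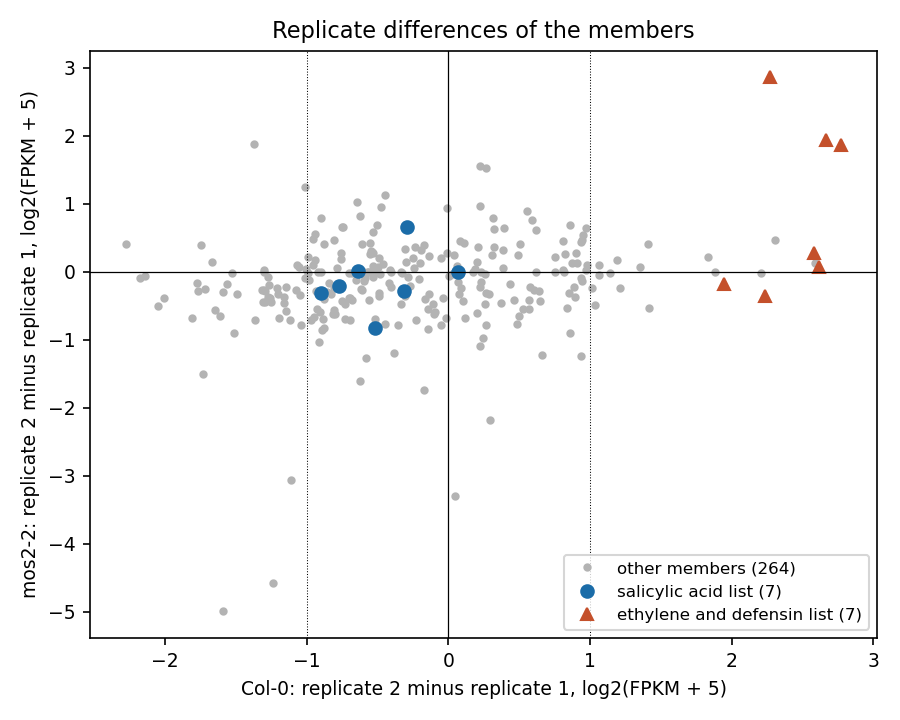
Replicate 2 minus replicate 1 on the log2(FPKM + 5) scale for each member, in Col-0 (horizontal axis) and mos2-2 (vertical axis), with dotted lines at a 2-fold Col-0 difference. All 7 ethylene and defensin members (triangles) lie to the right of 1, while the 7 salicylic acid members (blue circles) lie between the dotted lines.

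Counting what the rule did not use, 245 members (88.1%) were protein-coding, beside 94.6% of genes tested. Protein-coding members were short, with a median longest transcript of 1177 nt against 1710 nt. Of these, 84 (34.3%) had 1 exon, beside 15.7% of protein-coding genes tested, and 52 (21.2%) had no named product, beside 7.36%. The abundant members without a known function included AT5G42530, at 16716 and 8837 FPKM in wild-type seedlings and 4653 and 4623 FPKM in the mutant, and AT2G25510, at 13935 and 5657 FPKM against 4326 and 4392 FPKM. GRP-3, a glycine-rich cell wall protein, had 15838 and 11269 FPKM in Col-0 but 6855 and 5348 FPKM in the mutant. Organelle loci gave 8 members (2.88%, beside 1.02% of genes tested). ATCG00220, with the highest level of any member, had 50942 and 92403 FPKM in the wild type, against 29491 and 15751 FPKM in mos2-2. It had no match in the annotation used, so neither name nor length is given.

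Transcripts under 300 nt were 18 of 268 mapped members (6.72%), beside 2.32% of genes tested, and in a short locus a given FPKM rests on fewer reads. The snoRNA AT1G03935 had 72.9 and 282 FPKM in Col-0 but was listed at 0 in each mutant library. The tRNA AT2G07763 had 528 and 221 FPKM in wild-type seedlings and 114 and 0 FPKM in the mutant, and the snoRNA AT3G58196 had 477 and 155 FPKM against 154 and 0 FPKM. In these loci the second mos2-2 library was at 0 throughout. MIR413, a microRNA precursor locus of 123 nt, had 39.3 and 25 FPKM in Col-0, close to 19.7 and 19.6 reads by the depth estimate, and was listed at 0 in mos2-2. That estimate was set on longer transcripts, so it is uncertain for a locus this short. AT5G10336 held the same values as MIR413 in every library, so these 2 members are 1 measurement. An exact 0 can be a failed estimate, and 6 members were at 0 in both mos2-2 libraries and 19 in at least 1. The rule excludes any gene at 0 in a Col-0 library, so zeros among members could fall only in mos2-2. AT2G24945 had 79.1 and 81.8 FPKM in Col-0 but 44.2 and 0.00178 FPKM in mos2-2, and such members rest on 1 mutant library.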

How the data were processed

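The authors deposited 1 FPKM value per locus and library. The submitters' processing notes name TopHat, Cuffdiff and the build TAIR10. Tool versions, the gene annotation, the strand option and the rule for reads with several matches: not given in the sources used here. No scaling was added to the FPKM. Of the 33557 loci, 32810 were matched to the TAIR10.1 annotation and 747 were not; 8594 were at 0 in every library. Names, lengths, promoters and coordinates are those of RefSeq TAIR10.1. A pseudocount of 5 was added before log2, which shrinks the differences of genes at low level, and each fold divides the mean FPKM of the genotypes. Genes averaging at least 1 FPKM were fitted with limma 3.58.1 in R 4.3.3, with genotype alone in the model, trended variances and two-sided tests; the fit was tested on simulated data. Sequences were aligned with Biopython 1.88. Read numbers are estimates from the steps of low FPKM values and cover counting error only.

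The members, the pathway lists and the naming rule were chosen with earlier results of these data known. The rule names the 15 lowest members, up to 6 of each pathway list and 4 of each family, runs of 3 or more, the 4 nearest the threshold on either side, the 6 most abundant, 6 short or at 0, the 6 steadiest and the 6 least steady between replicates, and MOS2 with its neighbours. NIMIN-2, GSTF10 and CRK6 were added after their values were seen. Alternatives were the pseudocount, scaling, filters, gene types, a larger difference, overlap, the replicate block and leaving out each library. Some promoter sequences are not reported here.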

Additional observations from a re-analysis of the deposited data

How the results depend on the processing

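The count of 278 members came to 703 with a pseudocount of 1 (all 278 among them) and to 71 at a log2 difference of -1.5 or less. Leaving out each library in turn gave 435 to 671 genes, since 3 libraries meet the demand of no overlap more easily; 171 of the 278 were kept without Col-0 replicate 1, 227 without Col-0 replicate 2, 237 without mos2-2 replicate 1 and 214 without mos2-2 replicate 2. Median-ratio scaling gave 221, quantile normalization 227, and the other alternatives 250 to 368. These scalings brought the median of all genes tested from -0.064 to 0.005 and 0.008 and gave 129 and 124 higher genes in place of 110. The limma count of 0 lower genes became 2 with a pseudocount of 1 and 10 with no filter; the cause was not tested. It was 0 without any library in turn, where the lone library was taken to have the spread of the other genotype. With the replicate number as a block the count was 0, and the block with nuclear genes of at least 300 nt gave 4. The numbers are not stated to pair libraries, and with 2 pairs the correlation of deviations was 0.244. Chosen after seeing the data, the rule without near-identical members gave 271. In the same way, receptor-like kinases gave 22 genes with a pseudocount of 1 and 17 without Col-0 replicate 2, and EF-hand proteins gave 9 and 11 without Col-0 replicates 1 and 2. The depth of about 4070000 reads in Col-0 replicate 1 limits members of low level.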
